A study of Homo sapiens with 2 samples.

Results

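DUSP9 and 9 further MAP kinase phosphatases (DUSP1, DUSP2, DUSP4, DUSP5, DUSP6, DUSP7, DUSP8, DUSP10 and DUSP16) were followed through a pooled CRISPR knockout screen in SK-OV-3, an established human ovarian cancer cell line. The 10 genes are among 19051 protein-coding targets of the GeCKO v2.0 guide pool, and their 60 guides, 6 for each gene, are among 114123 protein-coding guides. DUSP9 was chosen by its measured values in these libraries, namely the number of its guides that rose after sorting and their median ratio, and the other 9 genes by their family. The values of DUSP9 are therefore a description and support nothing by themselves.

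All cells carried a stably integrated dual-fluorescence reporter of transcriptional readthrough (TRT), delivered with an EF1a lentiviral vector, in which mCherry lies ahead of the COMMD3 to BMI1 interval and EGFP behind it. They took up the guide pool at a low multiplicity of infection, near 0.3, and were selected with puromycin at 2 µg/mL. A first library was made from genomic DNA of unsorted cells. The second came from the TRT-negative sort, which kept cells with mCherry but without EGFP. The control is titled with both fluorescent proteins but was read as unsorted, as in the design text, and every ratio below depends on that reading.

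MAP kinases are switched on when an upstream kinase phosphorylates a threonine and a tyrosine in their activation loop, and the dual-specificity MAP kinase phosphatases switch them off by removing both phosphates. Many of these phosphatases are themselves induced by the kinases they inactivate, so that they act as negative feedback. The family is commonly divided into nuclear enzymes induced by growth factors and stress (DUSP1, DUSP2, DUSP4, DUSP5), cytoplasmic enzymes that prefer ERK (DUSP6, DUSP7, DUSP9), and enzymes that prefer the stress kinases JNK and p38 (DUSP8, DUSP10, DUSP16).

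What the 10 enzymes share in sequence is the active site, in which a histidine and the catalytic cysteine are followed by 5 further residues and an arginine. This signature occurred once in the coding sequence of each of the 10 genes. Its coding stretch is printed 5′ to 3′ for the 5 genes on which the results below turn, with the codons of histidine, cysteine and arginine in capitals. It shows how far these members differ at the DNA level over a signature that their proteins share. The sequences come from the MANE transcripts of GENCODE 44 on hg38.
DUSP9: CACTGCttggcgggggtcagcCGT
DUSP7: CACTGCctggcaggcatcagcCGC
DUSP6: CATTGCttggctggcattagcCGC
DUSP10: CACTGCcaggctggggtgtccCGC
DUSP8: CACTGTctggctggcatctccCGC
The DUSP9 stretch lies at chrX:153650015-153650038 on the plus strand, in exon 4 of 4. That of DUSP7 lies at chr3:52051064-52051087 on the minus strand in exon 3 of 3, and that of DUSP6 at chr12:89349503-89349526 on the minus strand, also in exon 3 of 3. The DUSP10 stretch, at chr1:221702619-221702642 on the minus strand, lies in exon 4 of 4, and the DUSP8 stretch, at chr11:1557859-1557882 on the minus strand, in exon 6 of 7. Against DUSP9, the DUSP7 stretch had 5 base differences, DUSP6 had 6, DUSP10 had 7 and DUSP8 had 8.

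Because a guide cuts wherever its 20 bases stand next to an NGG motif, near-identical members could share a guide. Over both strands, the coding sequences held between 165 (DUSP6) and 457 (DUSP8) positions with 20 bases ahead of NGG. Among the 45 pairs of members, 3 shared any such 20 bases: DUSP7 and DUSP9 shared 3, and DUSP4 shared 1 with DUSP2 and 1 with DUSP5. The longest run that DUSP9 shared with another member, shown because a guide placed in it would match both genes, was 24 bases long.
DUSP9 and DUSP7: cccaacttcaacttcatggggcag
It lies at chrX:153650135-153650158 on the plus strand in exon 4 of DUSP9, and at chr3:52050944-52050967 on the minus strand in exon 3 of DUSP7. The guides themselves are given by number in the count table and their sequences were not used here, so whether any guide lies in such a run was not tested. None of the 60 rows stood beside a row with identical nonzero counts, but guides of DUSP7 and DUSP9 are not neighbours in the table, so this leaves out that pair. A DUSP7 guide and a DUSP9 guide did have the same counts, 0 before and 33 after sorting, as had 254 protein-coding guides in all, and whether they share a sequence was not tested.

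Over 123411 rows, 12882989 reads were counted in unsorted and 12444427 in TRT-negative cells, with 1 library of each condition. No test between conditions was therefore possible, and all intervals are exact Clopper-Pearson 95% intervals. Those on shares of guides treat guides as independent draws, though several target the same gene. Those on ratios of reads cover counting error only, since PCR reads are not independent molecules. Rows with reads numbered 12956 in the unsorted library, with a median of 769.5 reads, and 28064 in the TRT-negative library, with a median of 66 reads. The TRT-negative library thus held many guides at low counts that the unsorted library did not show.

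Most guides against the phosphatases had no read, as was the case across the pool. In the unsorted library, 5 of 60 guides had a read (8.33%, interval 2.76% to 18.4%), against 10.5% of all protein-coding guides and 17.7% of the 1000 non-targeting guides. The non-targeting guides have repeated rows and were counted once each, so they are not represented like the gene guides. Whether this raised their shares was not tested. In the TRT-negative library, 18 of 60 had a read (30%, interval 18.8% to 43.2%), against 22.6% of protein-coding and 35.6% of non-targeting guides. The remaining 42 guides (70%) had no read in either library, against 76.9% of protein-coding guides. Guides read only after sorting numbered 13 of 60 (21.7%, interval 12.1% to 34.2%), against 12.6% of protein-coding and 19.0% of non-targeting guides. Without DUSP9 this was 9 of 54 guides (16.7%, interval 7.92% to 29.3%). Both intervals hold the protein-coding share, and the first count includes the guides of DUSP9, which was chosen on its values.

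**Figure D1:**
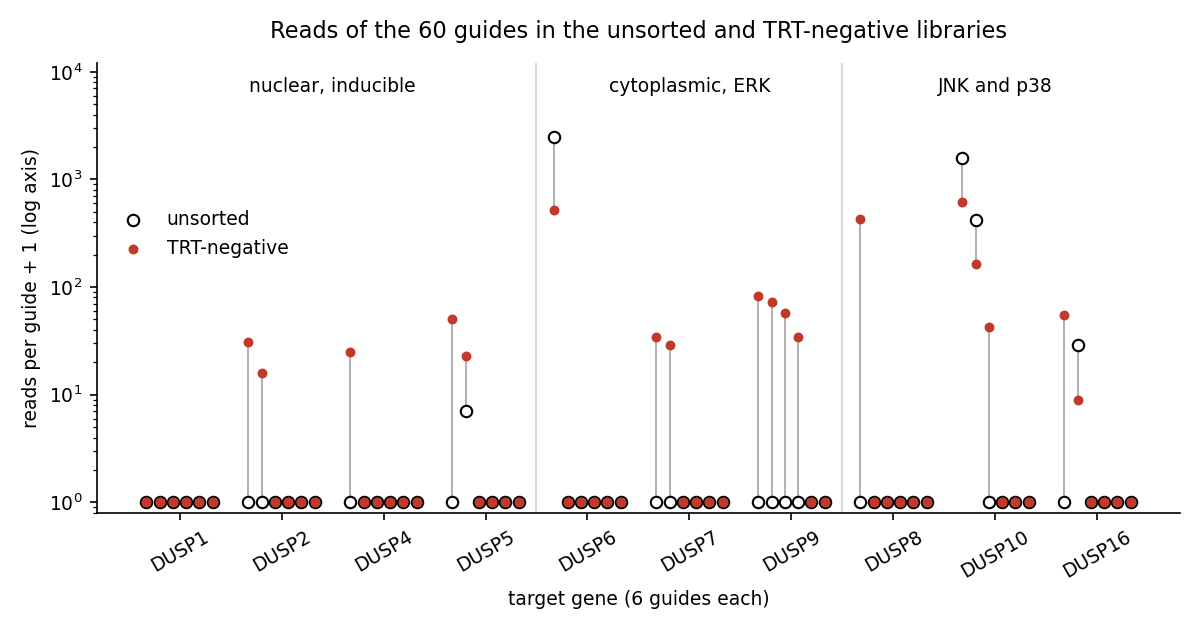
Reads plus 1 (log axis) of each of the 60 guides, 6 per gene, as open circles (unsorted) and filled circles (TRT-negative) with a grey line joining both values of a guide; guides with no read lie at 1. DUSP9 had 4 guides read only after sorting, DUSP8 had 1 at 428 reads, and the best-read guides of DUSP6 and DUSP10 were lower after sorting.

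Normalized counts, with 1 added to each, gave a log2 ratio of TRT-negative over unsorted cells, and guides above 5.93 were termed enriched. This value is where the highest 5% of the non-targeting rows begin. A guide without unsorted reads needed 60 TRT-negative reads for this. Enriched guides numbered 3 of 60 (5%, interval 1.04% to 13.9%), 2 of them against DUSP9 and 1 against DUSP8, beside 2.87% of protein-coding guides. The share of non-targeting guides, 5%, is fixed by the threshold. The 9 genes other than DUSP9 had 1 enriched guide of 54 (1.85%, interval 0.0469% to 9.89%). Of the 10 genes, 2 had an enriched guide, against 16.0% of all protein-coding genes. The interval for all 10 genes holds the protein-coding share. Its count includes the DUSP9 guides on which that gene was chosen, so no conclusion is drawn from this.

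DUSP9, a cytoplasmic phosphatase that prefers ERK, is encoded at chrX:153642492-153651326 on hg38, with 3 coding exons. None of its 6 guides was read before sorting. In the TRT-negative library they had 82, 72, 57, 33, 0 and 0 reads. The guides with 82 and 72 reads passed the threshold, with log2 ratios of 6.40 and 6.22, and the guide with 57 reads, at 5.88, lay just outside it. With the threshold at the 99th percentile of the non-targeting rows instead, neither DUSP9 guide passed. The guide with 33 reads had a log2 ratio of 5.11. Both enriched guides came from half-library A of the pool, and those with 57 and 33 reads from half-library B.

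Against a floor of 3 unsorted reads, the 4 DUSP9 guides were at least 28.4-fold, 24.9-fold, 19.7-fold and 11.4-fold higher after sorting. This floor allows for the sampling of unsorted reads alone and takes the TRT-negative counts as exact. It is no bound for a guide that was lost when cells or DNA templates were sampled. Counts of this size were common among guides seen only after sorting: of 14434 such protein-coding guides, 1829 had more reads than the best DUSP9 guide, and 45.8% had fewer than the DUSP9 guide with 33 reads. Of all 6577 protein-coding guides with 33 to 82 TRT-negative reads, 91.1% had no unsorted read.

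DUSP9 stood out by the number of its guides rather than by the reads of any one of them. It was among the 81 of 19051 genes (0.425%) with at least 4 guides read only after sorting, and among 59 that also had no unsorted read for any guide. With 2 enriched guides it was also among 219 genes (1.15%) that had as many or more. The median log2 ratio of its 6 guides was 5.50, with 5 genes higher, and the mean was 3.94, with 6 genes higher. For the other 9 phosphatases the median was 0.00, as it was for 17693 genes (92.9%). Most guides of these phosphatases had no read in either library, except for DUSP10, whose read guides lay on both sides of the unread ones. These places describe the values on which DUSP9 was chosen.

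**Figure D2:**
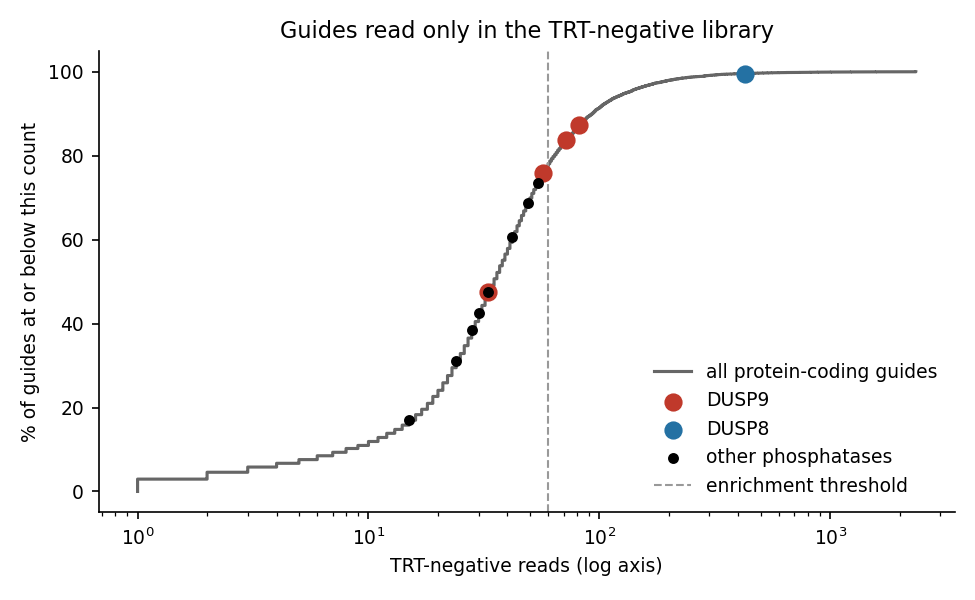
Cumulative share of the 14434 protein-coding guides read only in the TRT-negative library (y axis, %) by their TRT-negative reads (x axis, log), with the 13 phosphatase guides of this kind as points and the enrichment threshold of 60 reads as a dashed line. The DUSP9 guides lie at 33 to 82 reads, where a DUSP7 guide also has 33, and the DUSP8 guide lies at 428 reads with 61 guides above it.

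The other cytoplasmic phosphatases, unlike DUSP9, were included by their family, though with earlier results of these data known. DUSP6, a feedback inhibitor of ERK, had a single guide with reads, which went from 2452 unsorted to 516 TRT-negative reads, a 4.58-fold lower normalized count (interval 4.16 to 5.04) and a log2 ratio of -2.19. Its other 5 guides had no read in either library. For DUSP7, the closest member to DUSP9 by the sequence shared above, 33 and 28 reads were found after sorting for a pair of guides unread before, with log2 ratios of 5.11 and 4.88, and neither passed the threshold. As for DUSP9, none of the DUSP7 guides was read before sorting. This was common, as only 8944 of 19051 genes (46.9%), 4 of the members among them, had a guide read then. The 3 cytoplasmic phosphatases together had 7 of 18 guides read after sorting (38.9%, interval 17.3% to 64.3%, against 22.6% of protein-coding guides) and 2 enriched (11.1%, interval 1.38% to 34.7%, against 2.87%). Both counts rest on DUSP9, and without it 3 of 12 guides (25%) were read after sorting and 0 were enriched.

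Among the phosphatases of JNK and p38, DUSP8 had the most abundant guide that was read only after sorting. It had 0 unsorted and 428 TRT-negative reads, a log2 ratio of 8.77 and at least 148-fold against the floor of 3 reads. Only 61 of the 14434 protein-coding guides read only after sorting had more reads, and few guides this abundant lacked unsorted reads (240 of 5534, or 4.34%, at 214 to 856 TRT-negative reads). The other 5 DUSP8 guides were not read in either library, so that DUSP8 rested on 1 guide, and its mean log2 ratio was 1.46.

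DUSP10, which acts on JNK and p38, was the best-read member by summed counts after sorting and its guides did not go the same way. A guide went from 1586 to 612 reads, 2.5-fold lower (interval 2.27 to 2.74), and another from 420 to 164 reads, 2.47-fold lower (interval 2.05 to 2.97). Another guide went from 0 to 42 reads, with a log2 ratio of 5.45, and the other 3 had none. DUSP16, a phosphatase of JNK, had a guide at 0 before and 54 after sorting, just under the threshold at 5.81, while a second one went from 28 to 8 reads, 3.37-fold lower (interval 1.5 to 8.56). The 3 genes together had 1 enriched guide of 18 (5.56%, interval 0.141% to 27.3%), against 2.87% of protein-coding guides.

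The nuclear, inducible phosphatases had the fewest reads. DUSP1, an immediate-early gene and the founding member of the family, had no read for any guide in either library, as was the case for 4213 of all genes (22.1%). For DUSP2, an enzyme best known from immune cells, 30 and 15 reads were found after sorting for a pair of guides unread before. DUSP4 had 1 guide that went from 0 to 24 reads. DUSP5, which is specific for ERK, had a guide at 0 before and 49 after sorting, while a second one went from 6 to 22, a ratio of 3.81 (interval 1.5 to 11.5). The group had 140 TRT-negative reads in all over 24 guides, and 0 of these were enriched, which with an exact interval allows up to 14.2%. At the protein-coding share of 2.87%, a count of 0 among so few guides says nothing about the group.

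Guides with at least 30 unsorted reads allow a ratio that does not rest on absence from the unsorted library, and 3 phosphatase guides had as many. These were the guides of DUSP6 and the better-read pair of DUSP10, and all 3 were lower by at least 2-fold after sorting, beside 39.2% of 10616 protein-coding guides with as many unsorted reads. None was higher by at least 2-fold, beside 12.1%. The median log2 ratio of all these protein-coding guides was -0.64 with an SD of 1.40 across guides, and that of 156 non-targeting guides was -0.89. The ratios of DUSP10, -1.32 and -1.30, lay above those of 27.0% and 27.8% of the protein-coding guides, and that of DUSP6 above 8.37%. With 3 guides from 2 genes, no difference from the background can be read from this count.

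**Figure D3:**
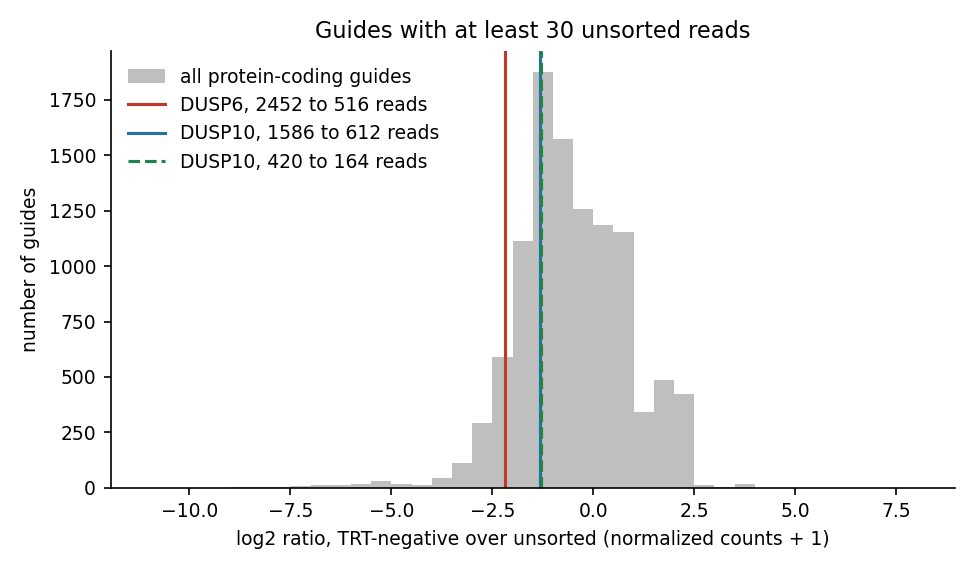
Histogram of the log2 ratio of TRT-negative over unsorted normalized counts plus 1 (x axis) for 10616 protein-coding guides that had 30 or more unsorted reads (y axis, number of guides), with vertical lines for the 3 phosphatase guides. DUSP6 lies at -2.19, towards the lower tail and above 8.37% of the guides. The DUSP10 guides lie nearly on top of each other at -1.32 and -1.30, above 27.0% and 27.8% of the guides.

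The substrates and upstream kinases of the phosphatases were taken next. Of the 10 MAP kinases (60 guides), 2 genes had 1 enriched guide each, 3.33% of guides with an interval of 0.406% to 11.5%. The share over all protein-coding guides was 2.87%. The 2 genes were MAPK3, which encodes ERK1, with a guide at 0 and 130 reads, and MAPK9, which encodes JNK2, with a guide at 0 and 194 reads. Among the MAP kinase kinases, 1 of 42 guides was enriched (2.38%, interval 0.0603% to 12.6%). It targeted MAP2K6, an activator of p38, and had 0 and 73 reads. Of the remaining MAP2K6 guides, 1 had 51 reads from 0 and 1 went from 787 to 165. Of 132 guides against the MAP kinase kinase kinases, 2 were enriched (1.52%, interval 0.184% to 5.37%). ARAF, a RAF kinase, had a guide with 0 and 86 reads beside one that went from 541 to 324, and MAP3K9, a mixed-lineage kinase, had a guide with 0 and 71 reads beside one that went from 357 to 193. KSR1, a scaffold of the ERK cascade, had 1 guide at 0 and 68 reads and 1 that went from 1298 to 611. Of the 6 scaffold genes it alone had an enriched guide, 1 of 36 guides (2.78%). Over all protein-coding genes, 16.0% had at least 1 enriched guide.

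Further phosphatases and the feedback inhibitors of ERK signalling had between 2.08% and 5.56% of their guides enriched, beside 2.87% of protein-coding guides. The interval of each list held that share. The atypical dual-specificity phosphatases, which lack the kinase-binding domain of the 10 members, had 3 of 102 guides enriched (2.94%, interval 0.611% to 8.36%). Of these, 2 were against DUSP23, with 283 and 79 TRT-negative reads from 0, and 1 against DUSP27, with 79 reads from 0. Of 8 other phosphatases known to act on MAP kinases, PPP2CB, a catalytic subunit of PP2A, had the 1 enriched guide of 48 (2.08%, interval 0.0527% to 11.1%), with 73 reads from 0. The feedback inhibitors of ERK signalling had 2 of 36 guides enriched (5.56%, interval 0.68% to 18.7%), both against 1 gene. SPRY4, a Sprouty protein that inhibits growth factor signalling to ERK, had enriched guides with 80 and 72 reads from 0, a guide with 16 reads from 0, and a well-read guide that went from 1668 to 1412.

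Downstream of the MAP kinases, 5 of 132 guides were enriched (3.79%, interval 1.24% to 8.62%). ELK1, a transcription factor phosphorylated by ERK, had 2 of them, with 83 and 78 reads from 0, and a further guide with 3 reads. RPS6KA2, a ribosomal S6 kinase, had 1 with 95 reads. MKNK1, a kinase of the initiation factor eIF4E, had 1 guide at 154 reads from 0 and 1 that went from 1935 to 609. MAPKAPK3 had 1 guide at 74 reads from 0 and 1 that went from 674 to 2632. Over all 8 lists, 17 of 588 guides were enriched (2.89%, interval 1.69% to 4.59%), close to the protein-coding background of 2.87%, and 3 of 98 genes had at least 2 enriched guides (DUSP23, SPRY4 and ELK1). This was 3.06% of the listed genes, against 1.15% of all protein-coding genes, a difference of few genes that was not tested. The median log2 ratio was 0.00 for the listed and for all protein-coding guides, a value fixed by the guides without a read.

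**Figure D4:**
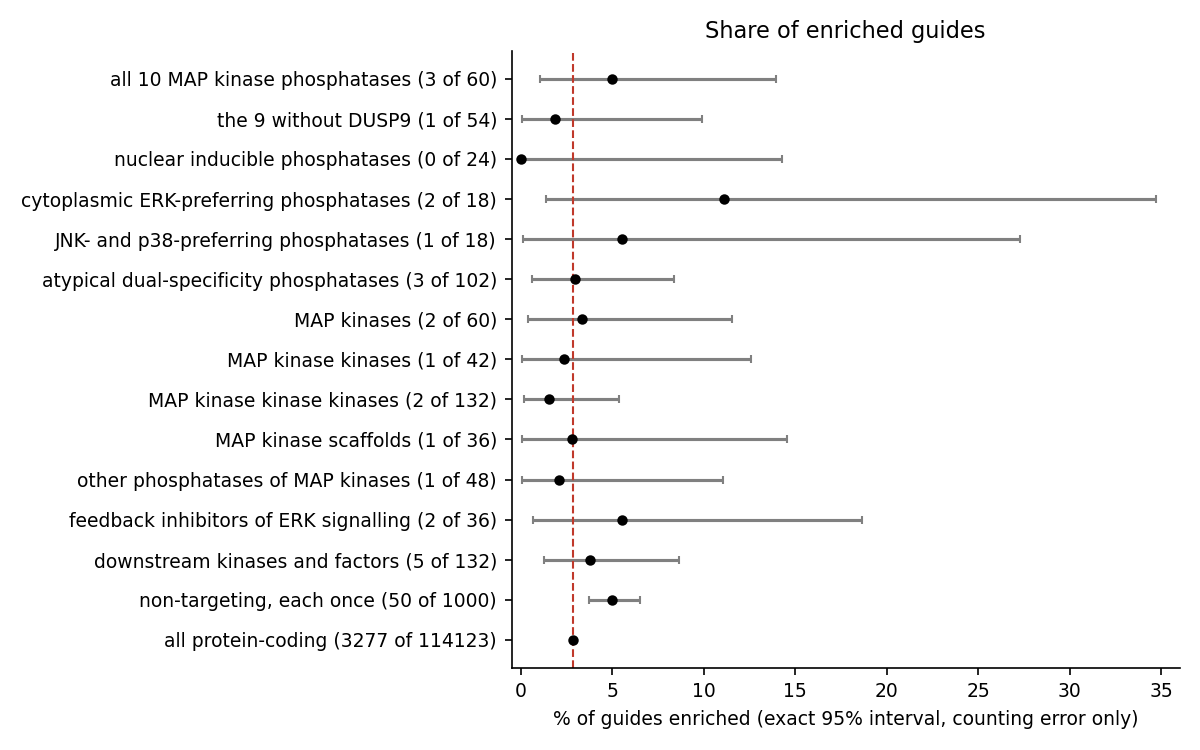
Percentage of guides enriched after sorting (x axis) with exact 95% intervals for the phosphatases, their subgroups, the MAP kinase lists, non-targeting and all protein-coding guides, with the number enriched and the number of guides in brackets; the dashed line marks 2.87% for all protein-coding guides. The interval of each phosphatase and pathway group includes this value, though groups with DUSP9 hold the guides on which it was chosen. The share of the non-targeting guides is fixed by the threshold and is no result.

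The genes whose guides looked most like those of DUSP9 were sought among the other genes with 6 guides, by the Euclidean distance between their 6 log2 ratios put in order. XAGE1B and XAGE1C, copies of a cancer-testis antigen gene, came first at a distance of 0.43, with 88, 70, 43 and 36 reads after sorting and none before. Of their 6 rows, 4 each stood beside a row with identical counts, so that these reads cannot be assigned to a single copy. GCH1, the rate-limiting enzyme of tetrahydrobiopterin synthesis, followed at 0.83, with 74, 46, 45 and 43 reads from 0 and another guide that went from 152 to 136, and 1 of its rows stood beside a row with identical counts. SH3BGRL2 lay at 0.90, with 85, 44, 41 and 28 reads from 0 and a guide that went from 236 to 196. IL22RA1, a subunit of the interleukin-22 receptor, lay at 0.94, with 80, 42, 41 and 27 reads from 0.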

How the data were processed

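Guide cassettes were amplified from genomic DNA and sequenced, with 1 unsorted and 1 TRT-negative library. Count tables deposited by the authors were used. One gives raw read counts for each guide. The other gives a normalized signal, in which the authors multiplied raw counts by 0.982 (unsorted) and 1.02 (TRT-negative). The submitters' processing notes name MAGeCK and hg38, while how reads were assigned to guides is not given in the sources used here. Deposited MAGeCK tables hold the authors' own scores, p-values and log2 ratios and were not used.

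Log2 ratios were computed from the normalized counts with a pseudocount of 1. Ratios of raw counts carry exact intervals from the binomial share of their reads, and the floor of 3 reads was applied to the unsorted count only. Normalization factors were treated as fixed. Guides without reads were kept in every median. The 98 pathway genes found were from 8 lists (MAP3K15 and SPRY3 were not found under these symbols or RefSeq synonyms), and genes with an enriched guide were named. Members and lists were chosen with earlier results of these data known. Without replicates no test was run, so edgeR was not applicable. The ratio calculation was tested on simulated data, with total-count scaling and for guides with many unsorted reads. Guides read only after sorting were not covered by it. Alternatives covered scaling, pseudocounts of 0.5 and 5, the 99th percentile, each half-library, minimum reads and rows with identical counts. Scripts ran in Python 3.11.15 (scipy 1.17.1, numpy 2.4.6, matplotlib 3.10.9, pandas 2.3.3).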

Additional observations from a re-analysis of the deposited data

How the results depend on the processing

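The threshold mattered most. With the threshold moved to the 99th percentile (log2 ratio 7.25, or 149 reads from 0), which 0.499% of protein-coding guides passed, 1 member guide remained enriched, that of DUSP8, with 0 for DUSP9 and 3 over the 8 pathway lists. Half-library B alone held 1 enriched member guide. The DUSP9 median log2 ratio was 5.65 with non-targeting scaling, 6.48 with a pseudocount of 0.5 and 3.30 with a pseudocount of 5, so its size is set by the pseudocount. The median of the 3 well-read member guides was -1.02 with non-targeting scaling, under which the median of all well-read protein-coding guides moved from -0.64 to -0.34, and -1.31 with a pseudocount of 5. The 3 enriched member guides and the 3 guides lower by at least 2-fold were the same in number under both scalings, both pseudocounts and without rows of identical counts. Under non-targeting scaling, however, the DUSP10 guides lay at -1.005 and -1.02, barely past the 2-fold limit. With at least 10 reads required, 17 member guides were read after sorting and 4 before. No paired analysis was possible because each condition had 1 library, and sampling of cells before sequencing could not be told apart from sorting.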
